A study of Mus musculus with 24 samples.

Results

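The dawn and dusk transcriptomes of dRRE mutant liver were compared in 8 of the 24 RNA-seq libraries of the series, chosen by genotype and time in the sample titles. Libraries from CT22 and CT2 made up the dawn group (n = 4), and libraries from CT10 and CT14 made up the dusk group (n = 4), with 2 libraries per time point. Circadian time (CT) counts hours of the internal day in constant darkness, so CT22 and CT2 lie on either side of the projected lights-on and CT10 and CT14 on either side of the projected lights-off. The dRRE (genotype delta-RRE) mice were males of C57BL/6 background in which CRISPR-Cas9 had removed the REV-ERB/ROR response elements (RREs) of Arntl, the gene of the clock activator BMAL1, in every cell of the body. By the methods of the study the mice were adults in the second day of constant darkness, and 1 mutant line was used where nothing else is stated, so a trait of that line cannot be told apart from the deletion. Wild-type (WT) males of the same background, with 8 libraries of the same 4 time points, served as the comparison. No age was given for single libraries, and the labels do not say that each library is a separate animal, so the p-values measure the spread between these libraries. The measure was FPKM (sequenced fragments of a gene, scaled to its length and to the fragments mapped in the library) of poly(A) RNA, and the test covered the 11244 of 54733 genes whose FPKM averaged 1 or more across the 24 libraries.

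In the mammalian clock, BMAL1 pairs with CLOCK or its relative NPAS2 and activates genes that carry E-boxes, among them the Per and Cry genes, whose proteins shut this activation off. The same E-boxes drive the REV-ERB genes Nr1d1 and Nr1d2, and REV-ERB proteins repress genes that carry RREs, while ROR proteins activate them. A further layer, the D-box, is bound by the activators DBP, TEF and HLF and by the repressor E4BP4, the product of Nfil3. In liver, E-box and D-box genes usually peak around dusk and RRE genes around dawn, and the clock thereby times lipid, bile acid, heme and glucose metabolism.

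Reference promoters show where such elements lie in some of the genes named below. The genes shown carry a motif that goes with their phase in this scheme, which does not hold for all named genes. Dawn-higher Elovl5, Ppp1r3c and Slc16a1 carried E-boxes, and dusk-higher Slc37a4 and Marco carried RRE cores. The sequences are RefSeq promoters of GRCm38.p6 (the same assembly as mm10), from 250 bases before to 50 bases after the transcription start, and capitals mark the motif. They carry the reference allele and not the deletion. Dusk-higher Ciart had 3 E-boxes, and those that begin 116 bases (chr3:95882327-95882356, minus strand) and 58 bases before the start (chr3:95882269-95882298, minus strand) are shown because Ciart had the largest difference of all genes called:
Ciart E-box, first: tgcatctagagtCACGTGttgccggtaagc
Ciart E-box, second: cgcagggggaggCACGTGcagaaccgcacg
Per1 (chr11:69098771-69098800, plus strand), Tef (chr15:81802534-81802563, plus strand) and Coq10b (chr1:55052680-55052709, plus strand) held the same hexamer and were also higher at dusk:
Per1 E-box: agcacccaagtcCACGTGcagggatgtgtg
Tef E-box: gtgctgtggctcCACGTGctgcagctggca
Coq10b E-box: ggcggcactggaCACGTGcgtcagcctagc
D-boxes stood in the promoters of Coq10b (chr1:55052597-55052626, plus strand) and, in 2 copies, of Per3 (chr4:151044852-151044881 and chr4:151044805-151044834, minus strand):
Coq10b D-box: cgtcacgaagaTTACATAAgtggcagactc
Per3 D-box, first: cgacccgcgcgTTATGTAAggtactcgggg
Per3 D-box, second: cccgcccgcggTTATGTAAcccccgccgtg
An RRE core stood 12 bases before the start of dawn-higher Nfil3 (chr13:52981033-52981062, minus strand), and in the intact Arntl gene another lies 30 bases after the start, in the 5′ untranslated region (chr7:113207530-113207559, plus strand):
Nfil3 RRE: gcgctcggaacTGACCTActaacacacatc
Arntl RRE: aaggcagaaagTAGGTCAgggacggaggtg

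Arntl itself was checked first, since the deletion was made in it. Arntl (ENSMUSG00000055116, chr7:113207465-113314126, plus strand) stood at 3.83 and 3.29 FPKM in the dRRE libraries of CT22, at 3.58 and 3.16 at CT2, at 2.50 and 2.1 at CT10, and at 2.59 and 2.49 at CT14. The 4 dawn libraries all lay above the 4 dusk libraries, but within a narrow range. The difference of dawn minus dusk was 0.50 ± 0.146 on the log2(FPKM + 0.1) scale (SE, 1.42-fold), which did not pass limma with Benjamini-Hochberg adjustment over all genes (adjusted p = 0.13). The exact two-sided permutation test of 4 against 4 libraries gave 0.0286, the smallest p it allows. In WT the dawn libraries held 11.8 FPKM on average and the dusk libraries 0.911 FPKM, a log2 difference of 4.22 (adjusted p = 0.0089). The dRRE difference was smaller than that of WT by a log2 change of −3.72 (95% interval −5.34 to −2.11, unadjusted p = 0.000169 in 1 limma fit of 16 libraries, adjusted p = 0.9999).

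With Arntl at this low and narrow range, 171 genes were higher at dawn and 85 were higher at dusk in dRRE liver (adjusted p under 0.05), which is 1.52% and 0.756% of the 11244 genes tested. Dawn genes included Npas2, the mitochondrial protease gene Clpx and the fatty acid elongase gene Elovl3, and dusk genes included Ciart, Dbp, Per1, Per3 and the heme synthesis gene Alas1. The median difference was 1.18 on the log2 scale (2.27-fold) among dawn genes and 1.23 (2.35-fold) among dusk genes, and 113 and 53 of them differed by at least 1 on that scale. Over all genes the median difference was 0.0036, and in 5688 genes the dawn mean was the higher one. In bulk liver, fewer cells of a type and less RNA per cell cannot be told apart.

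All 256 called genes had 4 libraries of one phase above all 4 of the other. Among all genes tested, 613 (5.45%) had the dawn libraries above and 430 (3.82%) the dusk libraries above. At an unadjusted p under 0.05 there were 965 dawn-higher and 736 dusk-higher genes.

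The counts depended on single libraries. Without dRRE CT22 replicate 2, 71 dawn genes and 38 dusk genes were called, without CT2 replicate 1 80 and 45, without CT2 replicate 2 84 and 43, without CT22 replicate 1 105 and 58, and without CT14 replicate 1 112 and 43. Without CT14 replicate 2 the counts rose to 212 and 162. Every one of the 256 genes kept its direction in each of these fits, which had to follow because their dawn and dusk libraries did not overlap. In all 8 fits that each leave out 1 dRRE library, 62 dawn genes and 34 dusk genes were called, among them Npas2, Nfil3, Clpx, Grk5 and Elovl5 at dawn and Ciart, Dbp, Per1, Per3, Tef, Usp2, Wee1, Coq10b, Alas1, Cyp2a5 and Por at dusk.

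**Figure D1:**
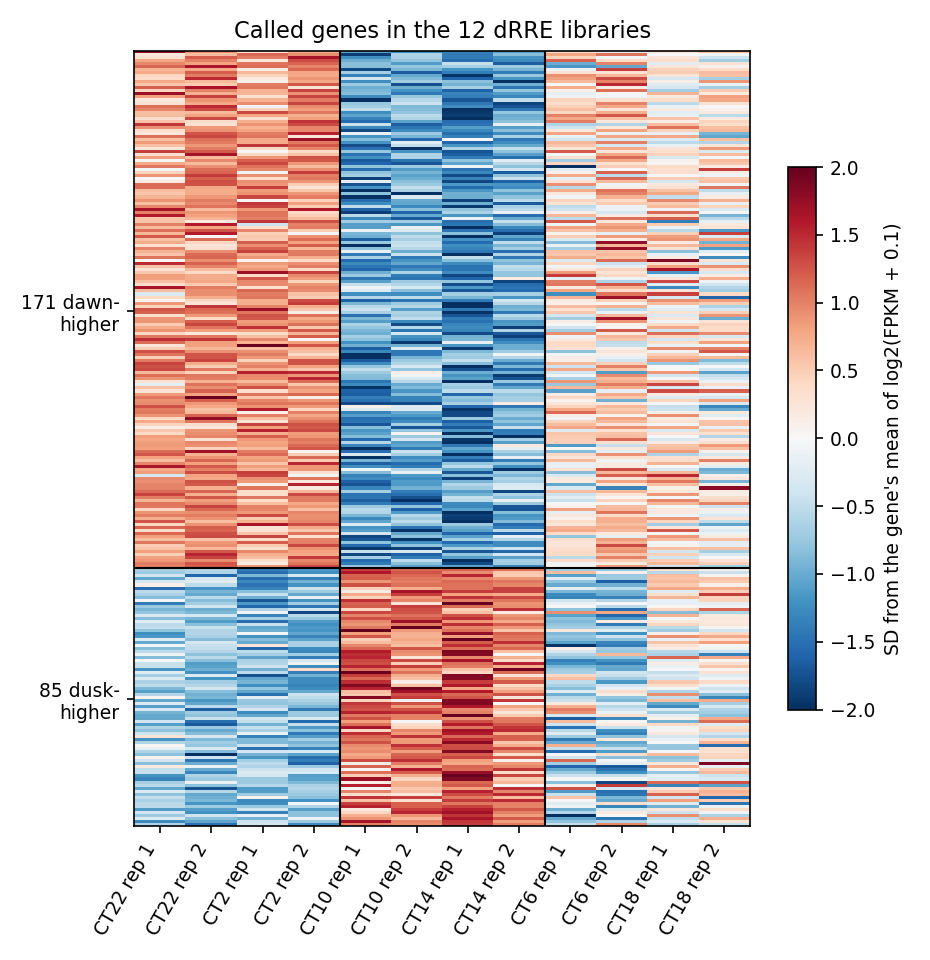
Standardised level (colour, SD from each gene's mean of log2(FPKM + 0.1) over the 12 dRRE libraries) of the 171 dawn-higher and 85 dusk-higher genes (rows) in each dRRE library (columns), with dawn, dusk and then CT6 and CT18 libraries separated by lines. The 4 dawn and 4 dusk libraries chose the genes, while CT6 and CT18 were not used. The CT6 and CT18 means both lay between the dawn and dusk means in 133 of the dawn-higher and 40 of the dusk-higher genes.

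The CT6 and CT18 libraries took no part in the choice and showed the course between the groups. Of the 171 dawn genes, 148 had a CT6 mean and 151 a CT18 mean between their dusk and dawn means, and 100 were higher at CT6 than at CT18. On the way from the dusk mean to the dawn mean, the median position was 75.6% at CT6 and 63.6% at CT18. Dusk genes were placed differently, with a CT6 mean between in 49 of 85 and a CT18 mean between in 73. Of these 85 genes, 61 were higher at CT18 than at CT6. Counted from the dawn mean to the dusk mean, their median position was 12.5% at CT6 and 45.7% at CT18. At the median, dusk genes thus stood near their dawn level at CT6, whereas dawn genes kept most of their dawn level there.

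The dusk libraries differed in markers of inflammation. The summed level of 20 acute-phase genes, which liver makes in inflammation, was 24121 and 19313 FPKM in the dRRE libraries of CT10, 26511 in CT14 replicate 1 and 8862 in CT14 replicate 2, against 10282 to 15705 FPKM in the 4 dawn libraries. Thus 3 of 4 dusk libraries lay above every dawn library, and the fourth lay below them. The 8 WT libraries held 8342 to 14739 FPKM. None of the 20 acute-phase genes was called in either direction (19 were lower at dawn, median −0.80, 6 with an unadjusted p under 0.05 in limma), but 12 were called dusk-higher when CT14 replicate 2 was left out. The summed erythroid markers ran from 537 to 1561 FPKM at dawn and from 1232 to 4451 FPKM at dusk, with 0 of 5 tested genes called (4 with an unadjusted p under 0.05 in limma) and all 5 lower at dawn.

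With the log2 acute-phase level as a covariate, an alternative added after the data were seen, 71 dawn and 34 dusk genes were called, and 67 and 33 of these were among the 171 and 85. When the 3 dusk libraries with high levels were left out, so that CT14 replicate 2 alone stood for dusk and was assumed to vary like the other libraries, 83 dawn and 23 dusk genes were called, of which 47 and 9 were among the 171 and 85. All 256 genes kept their direction under both, which without the 3 libraries had to follow because their dawn and dusk libraries did not overlap. Their medians were 1.15 and −1.06 under the covariate against 1.18 and −1.23. Of the 53 called genes that the naming rule gave, 31 also passed with the covariate, and 22 did not: Per1, Nr1d2, Elovl3, Pdk4, Tubb2a, Tubb2b, Acsl1, Nrg4, Slc38a3, E2f8, Rbm3, Hmgcs1, Me1, Cyp8b1, Slc37a4, Klf15, Psmd11, Bnip3, Stat5b, Slc16a1, Slc45a3 and Marco. A lost call need not be a lost difference, since the covariate itself differed between most dawn and dusk libraries and so costs precision. Of these 22 genes, however, Stat5b alone had a larger difference with the covariate (from 1.02 to 1.15), and the others had smaller ones. Klf15 went from −0.58 to −0.53, Slc38a3 from −0.68 to −0.47 and Elovl3 from 4.38 to 3.64. How far lost precision or a smaller difference accounts for each lost call was not tested. Of the other marker lists, all 8 endothelial genes were higher at dawn (median 0.37, summed level 35.9 to 67.1 FPKM at dawn and 35.3 to 42.9 at dusk), as were all 6 tested stellate cell genes (52.7 to 63.1 and 35 to 76.8 FPKM) and all 3 tested cholangiocyte genes (23.7 to 33.8 and 11.9 to 44.1 FPKM), with 0 called (unadjusted p under 0.05 in limma for 2, 3 and 1). Of 10 Kupffer cell genes only Marco, a scavenger receptor, was called (dusk-higher, −1.06, adjusted p = 0.0498 in limma), while 7 of the 10 had a positive sign (median 0.14) and their summed level overlapped (60.4 to 95.7 and 53.7 to 92.6 FPKM). Of 9 lymphocyte and neutrophil genes 1 was tested, and it was not called (0 with an unadjusted p under 0.05 in limma). The 10 hepatocyte markers summed to 45562 to 52626 FPKM at dawn and 42142 to 52302 FPKM at dusk with 0 called (3 with an unadjusted p under 0.05 in limma), and were thus abundant in every library. The part of these levels in the dawn and dusk calls beyond the fits given here was not tested.

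**Figure D2:**
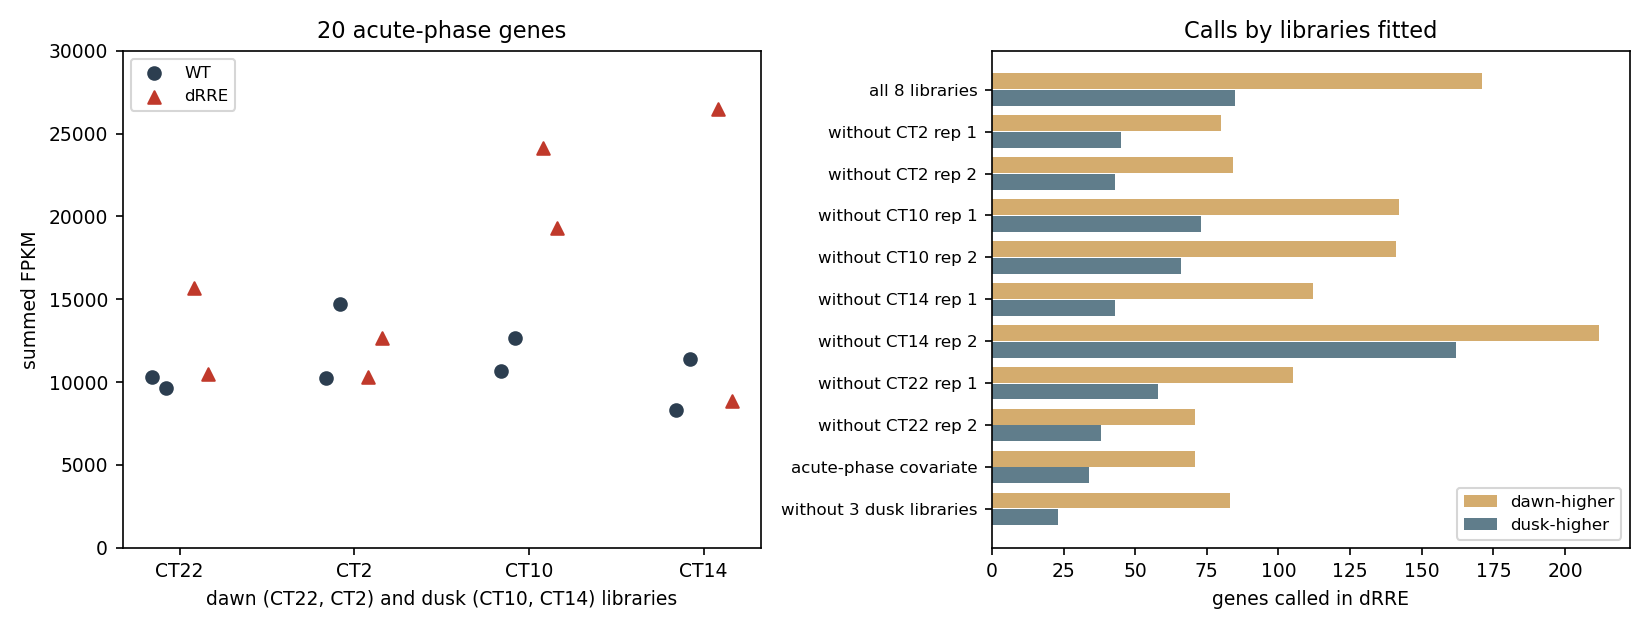
Left, summed FPKM (linear axis from 0) of 20 acute-phase genes in each dawn and dusk library of both genotypes. Right, number of genes called dawn-higher and dusk-higher in dRRE with all 8 libraries, without each library, with the acute-phase level as a covariate and without the 3 dusk libraries that lie highest on the left: the counts range from 71 to 212 and from 23 to 162.

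Of 24 clock genes tested, 11 were called in dRRE liver, 2 at dawn (Npas2 and Nfil3) and 9 at dusk, and 17 in WT. Over all genes tested, 1.52% were called at dawn and 0.756% at dusk in dRRE, and 2.18% and 1.6% in WT. These shares also stand beside the counts of the lists below, none of which was tested for an excess of calls. All 11 were also called in WT with the same direction, and all 24 had the same sign in both genotypes. The 6 clock genes called in WT but not in dRRE were Arntl, Clock, Leo1, Per2, Cry2 and Nampt. A call in WT alone is not a difference between genotypes. Arntl gave 4.22 in WT and 0.50 in dRRE, but Per2 gave −1.75 and −2.17, Cry2 −0.56 and −0.55, and Nampt −1.32 and −1.18. For these last genes the limma test between genotypes gave unadjusted p of 0.55, 0.995 and 0.71. With a separate mean for each time point, which takes the change between CT10 and CT14 or between CT22 and CT2 out of the error, 17 of the 24 passed in dRRE, adding Per2, Nampt, Cry1, Nr1d1, Leo1 and Lonrf3 to the 11.

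Among the activators, Npas2 showed the largest dawn-higher difference of any gene called. It stood at 4.41 and 6.24 FPKM at CT22, 3.42 and 7.41 at CT2, 0.149 and 0.0484 at CT10, and 0.0553 and 0 at CT14. Every dusk library was at the bottom of the scale, and the log2 difference was 5.08 ± 0.380 (SE, adjusted p = 0.00057 in limma), against 4.63 in WT. Clock, the other partner of BMAL1, had 5.91 to 8.69 FPKM at dawn and 1.83 to 5.69 FPKM at dusk (0.97, adjusted p = 0.18), with the groups not overlapping. Rora, which encodes an activator through RREs, gave 0.34 (adjusted p = 0.22). The 8 genes listed as RRE targets, Arntl among them, had a median of 1.20 in dRRE and 1.15 in WT, and 3 of 8 were called dawn-higher and 1 dusk-higher.

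Nfil3, the E4BP4 gene and an RRE target, was at 27.0 and 31.3 FPKM at CT22, 27.5 and 27.3 at CT2, 5.0 and 4.0 at CT10, and 9.67 and 7.69 at CT14. The dawn values were nearly equal and far above all at dusk, a difference of 2.17 ± 0.245 (adjusted p = 0.0027 in limma), with 2.09 in WT. E2f8, a cell cycle repressor on the RRE list, gave 2.08 (adjusted p = 0.017) in dRRE and 0.93 (not called) in WT, and the test of the difference between genotypes gave an unadjusted p of 0.068. Gys2, the liver glycogen synthase, stands on the RRE list but was dusk-higher (−1.35, adjusted p = 0.0093). Its dusk libraries held 106, 56.5, 102 and 94.2 FPKM and its dawn libraries 28.4 to 38.3 FPKM.

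**Figure D3:**
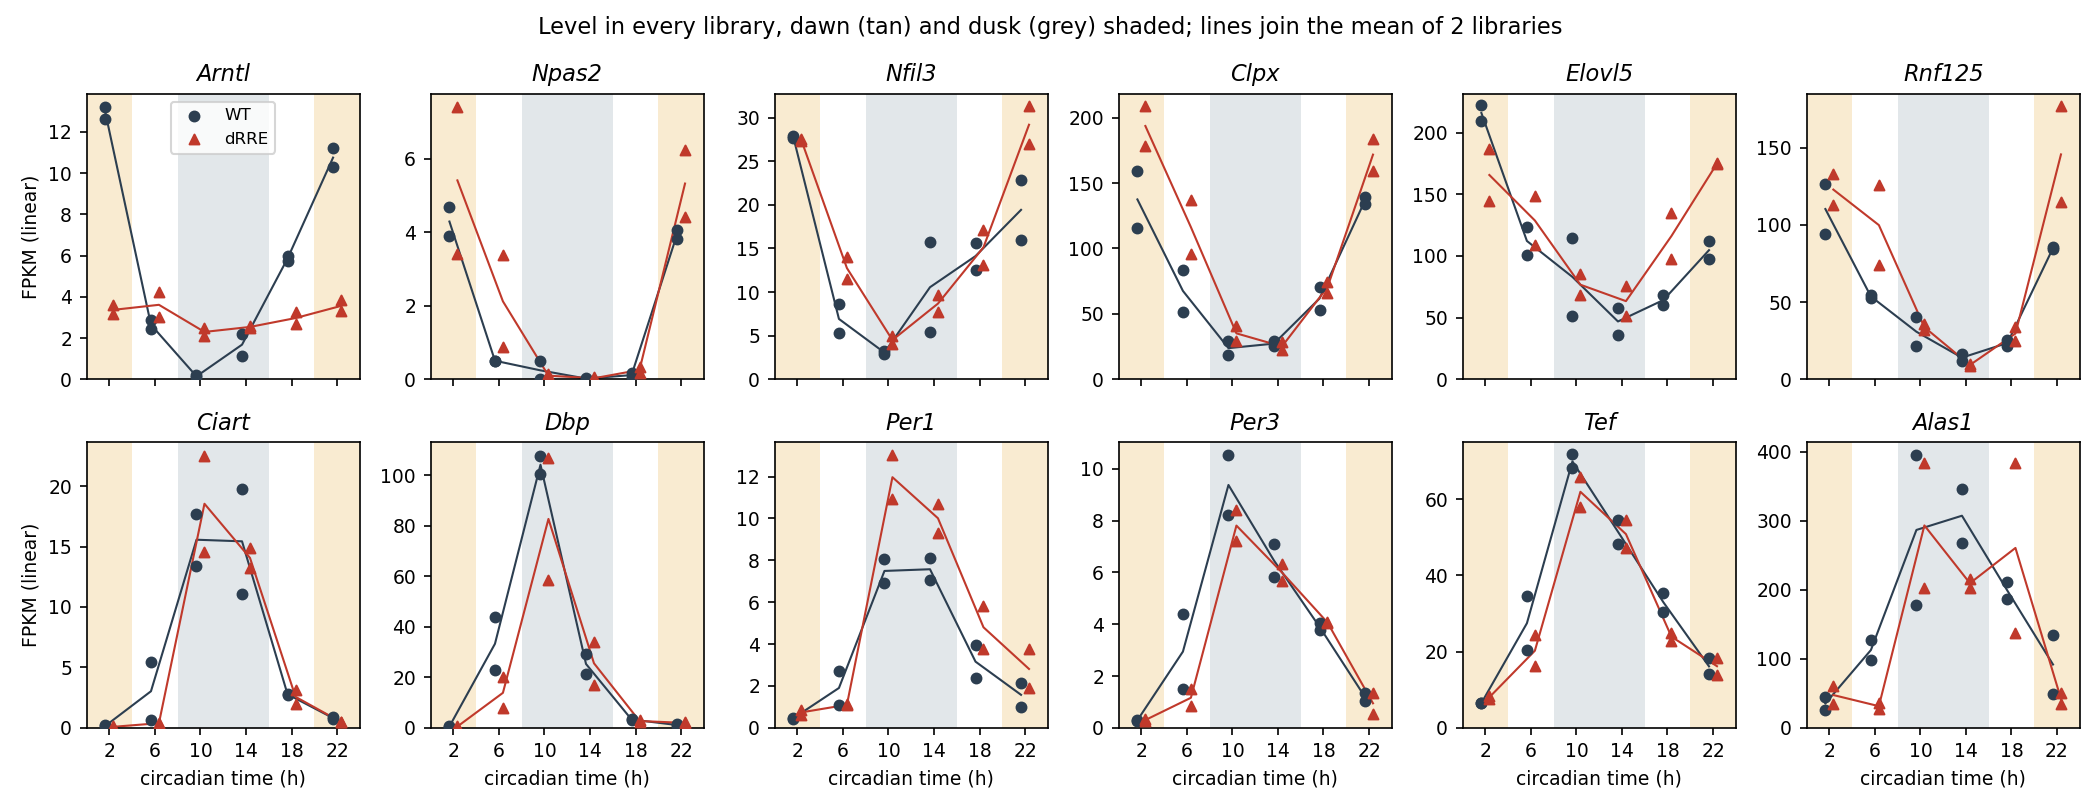
FPKM (linear axis from 0) of 12 genes against circadian time in every WT (circles) and dRRE (triangles) library, with lines through the mean of 2 libraries and the dawn and dusk times shaded. Arntl in dRRE stays between 2.1 and 4.21 FPKM, while Npas2, Nfil3, Clpx and Rnf125 are high at dawn and Ciart, Dbp, Per1, Per3, Tef and Alas1 at dusk in both genotypes. Elovl5 was called dawn-higher in dRRE (log2 difference 1.3) and not in WT, where its groups overlap but its difference was 1.34 (adjusted p = 0.084 in limma).

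Of the 6 period and cryptochrome repressors, which include Ciart, 3 were called and all were dusk-higher. Ciart, which encodes a repressor of CLOCK-BMAL1, stood at 0.450 and 0.515 FPKM at CT22, 0.0478 and 0.121 at CT2, 22.5 and 14.6 at CT10, and 14.9 and 13.2 at CT14. No dawn library came near the lowest dusk library, and the difference was −5.63 ± 0.442 (adjusted p = 0.00062 in limma), against −4.95 in WT. Per3 had 0.262 to 1.34 FPKM at dawn and 5.69 to 8.42 FPKM at dusk (−3.48 ± 0.391, adjusted p = 0.0027).

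Per1 was at 3.74 and 1.88 FPKM at CT22, 0.613 and 0.863 at CT2, and 9.32 to 13.0 FPKM at dusk (−2.86 ± 0.451, adjusted p = 0.012). Its CT22 libraries were the higher dawn libraries, and with the acute-phase covariate its adjusted p was 0.072 (−2.55). Per2 showed 1.02 to 2.91 FPKM at dawn, 5.06 and 4.69 at CT10 and 14.2 and 21.2 at CT14, so the dusk group was split by time. Its difference was −2.17 (adjusted p = 0.063), and −1.75 in WT (adjusted p = 0.034). Cry1 was also split, with 1.90 and 2.18 FPKM at CT10 but 10.0 and 9.83 at CT14, and its groups overlapped (1.44, adjusted p = 0.27). Cry2 gave −0.55 (adjusted p = 0.23).

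The REV-ERB genes differed in how well dusk and dawn separated. Nr1d2 (REV-ERB beta) had 2.14 to 9.96 FPKM at dawn and 12.2 to 33.3 FPKM at dusk, a difference of −2.14 ± 0.454 (adjusted p = 0.044), which passed in 2 of the 8 fits without 1 library. Nr1d1 (REV-ERB alpha) fell from 50.4 and 26.9 FPKM at CT10 to 5.86 and 6.64 at CT14, and CT2 replicate 1, at 12.4 FPKM, lay above both CT14 libraries. Its difference of −2.32 did not pass (adjusted p = 0.21), nor did that in WT (−2.28, adjusted p = 0.20).

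Of the PAR bZIP factors, Dbp and Tef were dusk-higher and Hlf did not pass. Dbp was at 1.72 and 2.18 FPKM at CT22, 0.367 and 0.679 at CT2, 107 and 58.5 at CT10, and 34.0 and 17.2 at CT14. All dusk libraries were far above the dawn libraries, and CT10 was above CT14 (−5.31 ± 0.618, adjusted p = 0.0032 in limma, and −5.95 in WT). Tef had 7.64 to 18.4 FPKM at dawn and 47.2 to 65.8 FPKM at dusk (−2.29 ± 0.262, adjusted p = 0.0028). Hlf gave −0.23 (adjusted p = 0.69), with overlapping groups and 1 high library, CT14 replicate 2 at 11.9 FPKM.

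Of 8 further clock outputs, Usp2, Wee1 and Coq10b were dusk-higher. Coq10b, which encodes a coenzyme Q carrier of mitochondria, had the smallest p of all genes in dRRE: it was at 6.80 to 8.10 FPKM at dawn and at 32.3, 31.0, 36.8 and 26.1 FPKM at dusk (−2.07 ± 0.128, adjusted p = 0.00029). Usp2, a deubiquitinase gene, ran from 0.679 to 3.17 FPKM at dawn and from 14.9 to 21.2 FPKM at dusk (−3.40, adjusted p = 0.0039). Wee1, a kinase that holds cells before mitosis, gave −1.78 (adjusted p = 0.0084) against −2.67 in WT, and the test of that difference gave an unadjusted p of 0.015, the smallest of the clock genes after Arntl. Nampt, the rate-limiting enzyme of NAD salvage, was 7.72 to 10.8 FPKM at dawn and 12.9 to 29.2 FPKM at dusk (−1.18, adjusted p = 0.053). Bhlhe40 (−1.14, adjusted p = 0.27), Tspan4 (−0.60), Leo1 (0.98) and Lonrf3 (1.63) did not pass.

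Beyond the clock genes, the largest dawn-higher genes came from several kinds of protein. Elovl3, a fatty acid elongase gene, was at 436, 495, 199 and 504 FPKM at dawn and at 10.9, 52.6, 4.62 and 42.2 FPKM at dusk. No dusk library came near the lowest dawn library, CT2 replicate 1, and the difference was 4.38 ± 0.702 (adjusted p = 0.013 in limma), against 4.03 in WT. Pitx3, a homeobox factor, gave 4.79 and was listed at 0 FPKM in CT14 replicate 1. Its gene (chr19:46135685-46148326, minus strand) overlaps the end of Elovl3 (chr19:46131897-46135694, plus strand). Pitx3 stood at 9.04, 13.2, 2.34 and 9.85 FPKM at dawn, lowest in the same library as Elovl3. Reads of Elovl3 may thus be counted for Pitx3, which was not tested. Loxl4, a lysyl oxidase, gave 4.07 with 3.03 to 8.82 FPKM at dawn and 0.110 to 0.447 at dusk.

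Clpx, the unfoldase of a mitochondrial matrix protease, had the most tightly separated dawn pattern of the abundant genes. It was at 184 and 159 FPKM at CT22, 209 and 178 at CT2, 40.7 and 29.6 at CT10, and 22.1 and 28.2 at CT14 (2.62 ± 0.175, adjusted p = 0.0003). Rnf125, a ubiquitin ligase gene, was 113 to 177 FPKM at dawn, 31.6 and 35.9 at CT10 and 8.56 and 9.95 at CT14 (2.90, adjusted p = 0.012). The tubulin genes Tubb2a (2.87, adjusted p = 0.022) and Tubb2b (2.62, adjusted p = 0.013), the receptor kinase gene Grk5 (2.75, adjusted p = 0.0027) and the pyruvate dehydrogenase kinase gene Pdk4 (3.23, adjusted p = 0.014) completed the 10 largest. Tubb2a and Tubb2b are near-identical copies, so that reads could be divided between them.

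The most abundant dawn-higher genes were Bhmt, Elovl3 and Acsl1. Bhmt, which remethylates homocysteine, was 1403 to 2045 FPKM at dawn and 663 to 932 FPKM at dusk (1.07 ± 0.153, adjusted p = 0.0082), and the pseudogene Bhmt-ps1, which may share reads, was called with it (1.05). Acsl1, which activates long-chain fatty acids, gave 0.77 (adjusted p = 0.044) but passed in 1 of the 8 fits without 1 library.

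On the dusk side, the next largest genes after the clock genes were Mfsd2a, Alas1, Noct and Nrg4. Mfsd2a, a transporter of lysophospholipids with omega-3 fatty acids, was at 3.94, 0.567, 1.78 and 4.28 FPKM at dawn, 44.1 and 41.8 at CT10, and 74.9 and 15.9 at CT14. Its 3 highest libraries were those with high acute-phase levels, the lowest dusk library, CT14 replicate 2, was still above dawn, and the difference was −4.15 ± 0.625 (adjusted p = 0.010) and −3.26 (adjusted p = 0.028) with the covariate. In WT it was −1.95 (adjusted p = 0.075), with an unadjusted p of 0.025 for the difference between genotypes. Noct, a phosphatase that acts on NADP, gave −2.41 (adjusted p = 0.0093), and Nrg4, a secreted ligand of the EGF family, gave −2.30 (adjusted p = 0.015).

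Alas1 encodes the first and rate-limiting enzyme of heme synthesis. It was at 49.7 and 34.3 FPKM at CT22, 60.7 and 34.3 at CT2, 203 and 384 at CT10, and 216 and 203 at CT14 (−2.47 ± 0.251, adjusted p = 0.0024). Por, which passes electrons to all microsomal P450 enzymes, was 53.8 to 82.9 FPKM at dawn and 152 to 306 FPKM at dusk (−1.57, adjusted p = 0.0091). Cyp2a5, a coumarin hydroxylase with close paralogs, was 106 to 163 FPKM at dawn and 375 to 524 FPKM at dusk (−1.82 ± 0.159, adjusted p = 0.0011). These were the 3 called of 23 tested genes of xenobiotic and heme metabolism, of which 10 had a positive and 13 a negative sign with a median of −0.10, and no receptor gene of the list (Nr1i2, Nr1i3, Ahr or Rxra) passed.

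The other most abundant dusk-higher genes were Rnase4, a secreted ribonuclease (373 to 519 FPKM at dawn and 591 to 1319 FPKM at dusk, −1.16, adjusted p = 0.030), and Slc38a3, a glutamine transporter (−0.68, adjusted p = 0.047). Both passed in 1 of the 8 fits without 1 library, and in both the lowest dusk library was CT14 replicate 2. Rnase4 shares its locus with Ang, so its reads may not be its own alone.

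Of 22 tested genes of fatty acid synthesis, 5 were dawn-higher (Elovl3, Elovl5, Me1, Acacb and Acss2) and 1 was dusk-higher (Lpin1), while 16 did not pass. Over all genes tested the shares were 1.52% and 0.756%. The signs were 15 positive and 7 negative, with a list median of 0.48 against 0.0036 over all genes. Elovl3 and Me1 did not pass with the acute-phase covariate (adjusted p = 0.067 and 0.092 in limma). Elovl5, a polyunsaturated fatty acid elongase, was 144 to 187 FPKM at dawn and 51.2 to 85.0 FPKM at dusk (1.3 ± 0.160, adjusted p = 0.0041). In WT its difference was 1.34 without a call, and the limma test between genotypes gave an unadjusted p of 0.92. Me1, the malic enzyme that supplies NADPH, gave 1.33 (adjusted p = 0.016). Lpin1, a phosphatidate phosphatase, was 4.61 to 7.61 FPKM at dawn and 18.9 to 42.8 FPKM at dusk (−2.01, adjusted p = 0.0069). In WT, 1 gene of this list was dawn-higher and 2 were dusk-higher, with a median of 0.24, and the difference between the lists' medians was not tested.

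In cholesterol synthesis, 22 of 24 genes had a higher dawn mean, with a median of 0.55, but 1 was called. Hmgcs1, an early enzyme of the pathway, was at 42.3, 115, 180 and 53.5 FPKM at dawn and 17.6 to 27.5 FPKM at dusk, and the wide dawn spread left it just past the threshold (1.87, adjusted p = 0.048, passing in 1 of the 8 fits without 1 library, and adjusted p = 0.21 with the acute-phase covariate). The WT median was 0.53 with 1 gene called. Of 14 bile acid genes, Cyp8b1, which sets the proportion of cholic acid, was dawn-higher (1.85, adjusted p = 0.023) and 12 of 14 had a positive sign, with a median of 0.26.

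Carbohydrate genes were divided. Of 20 genes of glycolysis and glycogen, Ppp1r3c, which targets a phosphatase to glycogen, was dawn-higher (2.13, adjusted p = 0.0053), and Gys2 and Pfkfb3, which encodes an activator of glycolysis (−2.17, adjusted p = 0.014), were dusk-higher. Slc37a4, the glucose-6-phosphate transporter and the only called gene of 11 in gluconeogenesis, had 36.5 to 43.9 FPKM at dawn and 66.1 to 93.9 FPKM at dusk (−0.85, adjusted p = 0.012). Pdk4 was the only one called of 24 genes of fatty acid oxidation and PPAR alpha, and the list's median was 0.080.

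Several stress and hormone lists had few calls. Among 16 glucocorticoid-responsive genes, 12 had a negative sign and the median was −1.05, with Per1 and Fkbp5, a co-chaperone of the glucocorticoid receptor (−1.91, adjusted p = 0.013), called dusk-higher. The metallothionein gene Mt1, called in WT (−3.01), gave −3.72 in dRRE with overlapping groups (adjusted p = 0.19). Of 9 KLF factors, Klf13 (−1.42, adjusted p = 0.0061) and Klf15 (−0.58, adjusted p = 0.023) were dusk-higher. Of 25 genes of amino acid catabolism, Bhmt was dawn-higher and Sds, serine dehydratase, dusk-higher (−1.57, adjusted p = 0.049). Sds stood at 508, 339 and 642 FPKM in the 3 dusk libraries with high acute-phase levels and at 186 FPKM in the fourth, near the highest dawn library at 177 FPKM.

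Other lists gave few calls each, beside 1.52% dawn-higher and 0.756% dusk-higher over all genes tested. The counts were not tested against these shares. Rbm3, a cold-inducible RNA-binding protein gene, was dusk-higher (−0.84, adjusted p = 0.014), against −0.83 in WT, while Cirbp of the same list gave −0.01. Herpud1 of the unfolded protein response (−1.40, adjusted p = 0.044) and the mitophagy receptor Bnip3 (−0.98, adjusted p = 0.017) were dusk-higher. Each was the only call of its list, with 20 unfolded protein response and 23 autophagy and lysosome genes tested. Btg1, an antiproliferative gene (1.08, adjusted p = 0.0069), the proteasome gene Psmd11 (0.54, adjusted p = 0.042), Stat5b of growth hormone signalling (1.02, adjusted p = 0.034) and the transporters Slc16a1 (0.85, adjusted p = 0.012) and Slc45a3 (1.34, adjusted p = 0.033) were dawn-higher. Calls were 1 of 31 proteasome genes, 1 of 19 hepatokine and growth hormone genes and 2 of 19 transporters. Of 12 cell cycle regulators, 2 were dawn-higher and 1 was dusk-higher. No gene was called among 20 heat shock proteins, 32 ribosomal proteins, 24 genes of ribosome biogenesis, 30 of the respiratory chain, 13 of NAD synthesis and sirtuins, 8 immediate-early genes, 11 ATF4 targets or 15 clock kinases and F-box proteins (unadjusted p under 0.05 in limma for 0, 0, 5, 2, 3, 2, 1 and 1 of them). In 17 genes of iron and heme handling Alas1 was the only one called. Of the called genes of these lists, Herpud1, Sds, Hmgcs1 and Marco passed in 1 of the 8 fits without 1 library, and Klf15, Psmd11 and Slc45a3 in 2.

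Whether the dawn and dusk genes of WT persist in dRRE liver was asked next. The WT libraries, which share no sample with the dRRE libraries, gave 245 dawn-higher (2.18%) and 180 dusk-higher genes (1.6%). Of the 245, 244 had the same sign in dRRE, 168 had all dRRE dawn libraries above all dusk libraries and 110 were called, and of the 180 these numbers were 175, 87 and 49. Over all 11244 genes tested, 5688 had a positive sign in dRRE. The dRRE dawn libraries lay above in 5.45% of all genes and the dusk libraries in 3.82%, and 1.52% and 0.756% were called. The 110 shared dawn genes are 44.9% of the WT list and 64.3% of the dRRE list, and the 49 shared dusk genes 27.2% and 57.6%. With the acute-phase covariate in dRRE the shared genes were 57 and 27, and without the 3 dusk libraries of high acute-phase level 48 and 11. No gene was called in opposite directions. At an unadjusted p under 0.05 in limma with the same sign, 202 of 245 and 124 of 180 WT genes were found in dRRE, beside 965 dawn-higher and 736 dusk-higher among all genes tested. Without dRRE CT22 replicate 2 the shared dawn genes fell to 59, without CT2 replicate 2 to 60, without CT2 replicate 1 to 68 and without CT22 replicate 1 to 73. The WT counts also depended on single libraries: leaving out WT CT2 replicate 1 gave 125 and 91, WT CT2 replicate 2 136 and 98, WT CT22 replicate 2 145 and 108, WT CT10 replicate 2 154 and 101, and WT CT22 replicate 1 155 and 96, while without WT CT14 replicate 1 the dusk count was 111. Of the 62 dawn and 34 dusk genes called in all 8 dRRE fits without 1 library, 52 and 31 were called in WT.

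**Figure D4:**
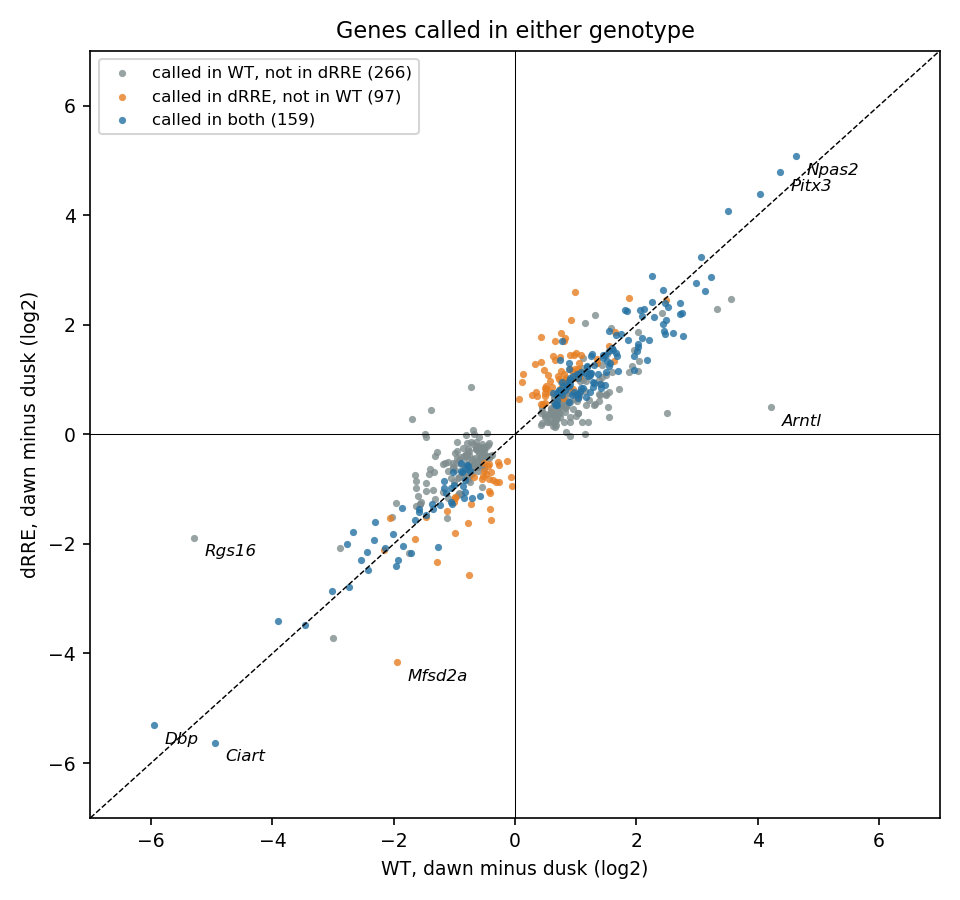
Dawn minus dusk difference (log2) in dRRE (vertical) against WT (horizontal) for each gene called in either genotype, coloured by where it was called, with the line of equal difference dashed. Most of the 159 genes called in both lie near the line, and Arntl lies far below it, at 4.22 in WT and 0.50 in dRRE.

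Genes chosen in one genotype measured smaller in the other at the median, in both directions of choice, but unevenly. Of the WT genes, 195 of 245 dawn genes (79.6%) and 144 of 180 dusk genes (80%) were smaller in dRRE. Of the dRRE genes, 96 of 171 dawn genes (56.1%) and 53 of 85 dusk genes (62.4%) were smaller in WT. The median of the WT dawn genes was 1.08 in WT and 0.80 in dRRE, and that of the WT dusk genes was 0.89 in size in WT and 0.63 in dRRE. In reverse, the 171 dRRE dawn genes had 1.18 in dRRE and 1.05 in WT, and the 85 dRRE dusk genes 1.23 and 1.01. All 171 and 85 had the same sign in WT. A gene picked for passing a threshold in one set of libraries tends to be overestimated in that set. These medians and shares are therefore no test of a change between genotypes, and why the shares were uneven was not tested.

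**Figure D5:**
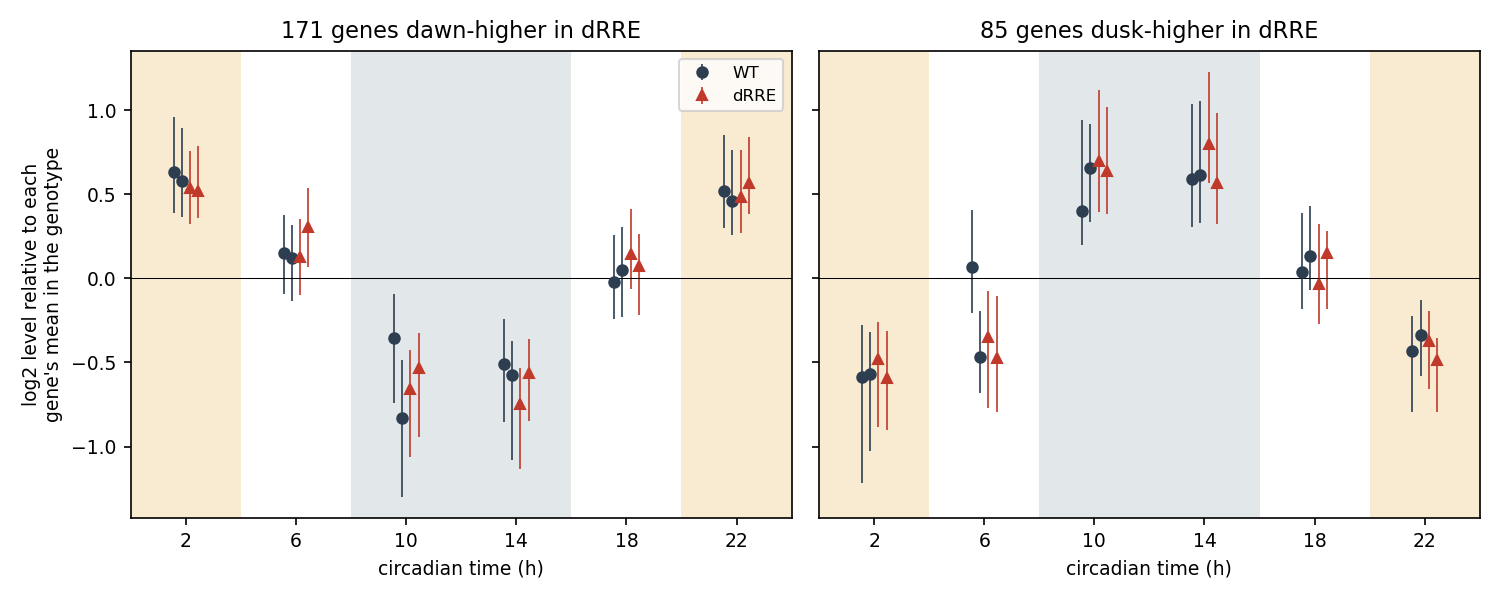
Median level (points) and quartiles (bars) of the 171 dawn-higher and 85 dusk-higher dRRE genes in each WT and dRRE library, as log2 difference from each gene's mean over the 12 libraries of its genotype, against circadian time. The dRRE dawn and dusk libraries chose the genes, and the WT libraries did not: their medians for the dawn genes run from 0.46 to 0.63 at dawn and from −0.83 to −0.36 at dusk.

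The test of the difference itself, in 1 fit of 16 libraries, called no gene at an adjusted p under 0.05 in limma. At an unadjusted p under 0.05 there were 317 genes, fewer than the 562.2 that a share of 0.05 of all genes tested makes, and the smallest adjusted p was 0.9999. Arntl had the smallest p (−3.72, unadjusted p = 0.000169). It was followed by Aifm1, a mitochondrial flavoprotein gene, at 0.38 in dRRE and −0.21 in WT (unadjusted p = 0.000403), Lrp4 (−0.33 and −1.29), the mitochondrial import gene Timm21 (0.28 and −0.23) and Rasgrp2, an activator of RAP proteins (−1.60 and 0.68). With a separate mean per time point Arntl and Gm21981 passed, and in 1 fit of all 24 libraries Golt1a passed with them, the last 2 being named because they passed there.

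Of the 5 largest WT genes in each direction, 4 dawn and 4 dusk genes were called in dRRE (Npas2, Pitx3, Elovl3 and Loxl4, and Dbp, Ciart, Usp2 and Per3), and Arntl and Rgs16 were not. Among these, Pitx3 may share reads with Elovl3. Rgs16, which encodes a brake on G protein signalling, gave −5.29 in WT. In dRRE it was at 19.2 and 4.40 FPKM at CT10, 0.234 and 1.22 at CT14, 3.73 and 0.152 at CT2, and 0.0994 and 0.968 at CT22. The libraries of CT10 were the highest and CT2 replicate 1 was above both of CT14, so the groups overlapped (−1.88, adjusted p = 0.54). The difference between genotypes had an unadjusted p of 0.049.

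Motifs were counted in the promoters of all genes with an entry, on both strands, and no motif contains another. The E-box CACGTG was present in 12.2% of the 8226 tested genes with a promoter, in 10.4% of 125 dawn-higher and in 24.2% of 66 dusk-higher dRRE genes, and in 30.8% of the 39 dusk genes called in both genotypes. The D-box (TTATGTAA or TTACGTAA) was found in 0.948%, 0% and 3.03%, the latter being Per3 and Coq10b. The RRE core (TAGGTCA or TGGGTCA) was found in 6.49% of tested genes, in 10.4% of dawn-higher and in 7.58% of dusk-higher genes. These shares are descriptions without a test, a match is not shown to be a bound site, and the promoters of Dbp, Npas2 and Usp2 held none of the 3 motifs in this window.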

How the data were processed

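Poly(A) RNA of mouse liver was sequenced from directional libraries, and the authors deposited 1 table of FPKM per library. The submitters' processing notes name Trimmomatic 0.39, HISAT2 2.1.0, StringTie 1.3.5 and the build mm10. FPKM corrects for length and library size. Read counts were not used here, so the depth behind each value is unknown, no counting error is given, and low values are the least certain. FPKM summed to 556432 to 588717 in the 8 dRRE libraries of the comparison.

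From the deposited FPKM, log2(FPKM + 0.1) was taken for the 11244 genes whose FPKM averaged 1 or more across 24 libraries, so that fold changes of low genes are understated. Dawn (CT22, CT2) was compared with dusk (CT10, CT14) within each genotype, 4 against 4 libraries, with limma 3.58.1 in R 4.3.3 (intensity trend, Benjamini-Hochberg adjusted p under 0.05). The difference between genotypes was an interaction term over 16 libraries. Single genes were also given an exact two-sided permutation test over 70 divisions (smallest p 0.0286). The fits were tested on simulated data in which 200 of the 11244 genes changed by 0.5, 1 or 2 on the log2 scale. The dRRE fit recovered 0.5%, 51.5% and 92% of them and called 0, 5 and 15 unchanged genes. The WT fit recovered 0%, 67% and 90.5% and called 0, 3 and 11 unchanged genes. A gene not called may therefore still differ, above all where the difference is small. The simulated noise was drawn independently for each gene and library, so levels shared by many genes, such as those of the acute-phase genes, were not simulated. The counts of unchanged genes called need not hold for the real libraries. Replicate numbers were not used to pair the libraries. Tables and figures were made with Python 3.11.15, pandas 2.3.3, NumPy 2.4.6 and matplotlib 3.10.9. Gene positions are those of GENCODE M21, and 8226 of the tested genes had a RefSeq promoter.

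Genes were named by rule: clock genes, the 10 largest called non-overlapping genes per direction in dRRE, the 5 largest per direction in WT, the 5 of smallest p for the genotype difference, up to 4 called per list, and the 3 most abundant called per direction. Predicted genes and pseudogenes were skipped in the size and abundance rules. Other genes named, such as Mt1, Cirbp, Acacb, Acss2 and Bhmt-ps1, were chosen after their values were seen. The members and lists were chosen with earlier results of these data known.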

Additional observations from a re-analysis of the deposited data

Results flagged for a closer look

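In the dRRE groups of the named genes, 9 of 142 groups of 4 libraries held 1 library whose gap to the nearest of the others exceeded Dixon's 95% limit for 4 samples, which chance gives in about 1 of 20 groups. At dusk, Alas1 stood at 384 FPKM in CT10 replicate 2 (next 216), Lpin1 at 42.8 FPKM in the same library (next 21.7), and Lrp4 at 3.18 FPKM there was the lowest (next 3.54). Slc37a4 reached 93.9 FPKM in CT14 replicate 1 (next 69.1) and Hlf 11.9 FPKM in CT14 replicate 2 (next 7.75). At dawn, Herpud1 was 139 FPKM in CT2 replicate 2 (next 66.8), where Por was lowest at 53.8 FPKM (next 79.1). Elovl3 was lowest in CT2 replicate 1 at 199 FPKM (next 436), and Nfil3 was highest in CT22 replicate 2 at 31.3 FPKM (next 27.5). With 9 of 142 groups near the share of 1 in 20, these gaps do not show that any library stood apart. Each group also joins 2 time points, which the limit does not take into account. What lay behind single gaps was not tested.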

How the results depend on the processing

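Counts are given in the order dRRE dawn, dRRE dusk, WT dawn, WT dusk, WT dawn genes called in dRRE and WT dusk genes called in dRRE, which were 171, 85, 245, 180, 110 and 49. Without a filter they were 31, 13, 92, 53, 13 and 5, where more genes share the adjustment. In 1 fit of all 24 libraries they were 403, 241, 511, 347, 267 and 139. For CT22 against CT10 alone they were 47, 22, 152, 104, 32 and 14, for CT2 against CT14 alone 79, 43, 141, 101, 43 and 28, and at an adjusted p under 0.1 284, 164, 425, 318, 187 and 91. Leaving out 1 library gave 71 to 212, 38 to 162, 125 to 298, 91 to 171, 59 to 120 and 34 to 61. With the acute-phase covariate, added after the data were seen, the 4 counts that involve dRRE were 71, 34, 57 and 27, and without the 3 dusk libraries 83, 23, 48 and 11.

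The genotype difference called 0 genes, 1 with 1 FPKM added, 2 with a mean per time point, 3 in the fit of 24 libraries, 1 for CT22 against CT10, 1 for CT2 against CT14, and 0 to 1 without 1 library. With the replicate block the counts were 156, 85, 214, 155, 103, 48 and 0. Deviations of the replicates correlated between time points at −0.003 to 0.305 (6 pairs of time points, 1 over 0.1). Rescaling by the median of ratios gave 169 and 103 in dRRE. Arntl in dRRE stayed at 0.38 to 0.61 and uncalled wherever it was fitted, and the filter at 5 FPKM removed it. The exact permutation test in place of limma, which adjusts over no other gene, put the same 0.50 at p = 0.0286. None of the values of named genes under planned settings changed sign, which leaving out 1 library could not cause where groups did not overlap. Of these values, 796 kept their call, 108 lost it and 19 gained it. Under the added settings these were 81, 59 and 2. With 2 libraries per time point and FPKM alone, depth and counting error remain unknown.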
